A study of Mus musculus with 7 samples.

Results

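Mitochondrial ribosomal proteins were followed in ribosome-bound RNA from adult mouse retinas after blockade of the Notch ligand Dll4. Members were the rows of the deposited table whose gene symbol is Mrpl or Mrps with a number and, in some, a letter, which took 73 of 12756 genes, 44 with a large subunit symbol (Mrpl) and 29 with a small subunit symbol (Mrps). All 7 libraries came from adult C57BL/6 mice of the genotype Cdh5-CreERT2 Rpl22 tm1.1Psam, so that control and treated animals alike carry the inducible Cre and the taggable ribosomal protein Rpl22, whose HA tag is switched on in cells that use the Cdh5 promoter, that is, in endothelium. The mice received a control IgG (3 libraries, named control IgG 1, 3 and 4 after the table's columns) or an antibody against Dll4 (4 libraries, anti-Dll4 1 to 4). The sources used here give neither dose nor time. Whether the libraries come from different animals is not stated either, so the p-values speak only of the spread among libraries, which may be technical.

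Mitochondria keep ribosomes of their own, which translate the few messenger RNAs made from mitochondrial DNA into core subunits of the respiratory chain and ATP synthase. Every protein of these ribosomes is encoded in the nucleus, made on cytosolic ribosomes and imported, and joins mitochondrial rRNA in a small subunit, which decodes the messenger, or a large subunit, which forms the peptide bond. The HA tag used here sits on a cytosolic ribosomal protein, so the pulldown aims at messengers on cytosolic ribosomes and not at mitochondrial ribosomes. RNA of other cells was also present, as the markers below show. Which Mrpl and Mrps reads came from tagged ribosomes is therefore not known. In the retina, photoreceptors are crowded with mitochondria.

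Many mitochondrial ribosomal protein genes have CpG-rich promoters with sites for ETS factors (among them GABP), NRF1 or YY1, so the letters of the start regions were examined as something the members might share beyond their names. The RefSeq promoter table (GRCm38.p6) reaches from 250 bases before the start to 50 after it, and 65 of the 73 members matched it by symbol, with 71 start regions. The ETS letters CCGGAAG, searched on both strands, occurred in 24 of the 71 member regions (33.8%) and in 8.86% of all 32851 regions of the table. The NRF1 letters, GCGC, any base and then TGCGC, occurred in 11 member regions (15.5%) and in 4.60% of all regions, and the YY1 letters AAGATGGCG in 8 (11.3%) and 1.40%. The ETS and YY1 letters can overlap in their shared AAG. Any of the 3 was found in 39 member regions (54.9%) against 13.6% of all regions, which is a description of letters and not of factor binding. The start regions of 4 members are shown, with matches in capitals: Mrpl53 and Mrps7 because they had the most reads, and Mrpl22 and Mrpl43 because their groups did not overlap.
Mrpl53, chr6:83108858-83109157, plus strand: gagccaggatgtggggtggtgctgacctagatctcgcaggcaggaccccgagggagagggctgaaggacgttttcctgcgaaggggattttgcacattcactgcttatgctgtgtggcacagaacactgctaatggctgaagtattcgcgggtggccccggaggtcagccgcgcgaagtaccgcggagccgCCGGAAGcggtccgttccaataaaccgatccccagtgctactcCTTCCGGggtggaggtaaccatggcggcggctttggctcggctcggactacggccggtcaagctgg
Mrps7, chr11:115603890-115604189, plus strand: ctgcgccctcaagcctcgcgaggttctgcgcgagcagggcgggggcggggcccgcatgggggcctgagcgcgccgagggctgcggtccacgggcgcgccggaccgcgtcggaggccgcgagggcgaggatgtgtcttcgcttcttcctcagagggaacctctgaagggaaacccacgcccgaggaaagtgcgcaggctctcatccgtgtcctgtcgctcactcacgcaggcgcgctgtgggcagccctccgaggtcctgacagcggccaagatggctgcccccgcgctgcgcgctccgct
Mrpl22, chr11:58171414-58171713, plus strand: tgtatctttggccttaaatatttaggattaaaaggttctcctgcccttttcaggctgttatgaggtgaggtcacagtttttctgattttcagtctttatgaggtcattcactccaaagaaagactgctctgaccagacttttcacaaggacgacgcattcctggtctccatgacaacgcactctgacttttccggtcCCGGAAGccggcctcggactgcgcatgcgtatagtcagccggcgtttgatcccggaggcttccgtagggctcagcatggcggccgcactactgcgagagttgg
Mrpl43, chr19:45006393-45006692, minus strand: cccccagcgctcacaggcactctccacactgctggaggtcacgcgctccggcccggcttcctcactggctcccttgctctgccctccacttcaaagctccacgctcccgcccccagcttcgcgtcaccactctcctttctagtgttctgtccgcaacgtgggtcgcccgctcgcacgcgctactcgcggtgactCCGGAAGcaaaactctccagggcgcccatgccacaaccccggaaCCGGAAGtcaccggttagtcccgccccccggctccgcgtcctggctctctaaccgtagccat
Mrpl53 had ETS letters at 59 and 16 bases before the start, Mrpl43 at 56 and 12 bases before it, and Mrpl22 at 53 bases before it. Mrps7 had none of the 3 motifs in this window. These 4 genes had log2 changes between anti-Dll4 and control libraries of -0.12, -1.33, 1.92 and 1.60 in the order shown, and none of these passed the test below.

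As a set, messengers of mitochondrial ribosomal proteins took shares of the RNA that differed between the groups by less than the spread between libraries. CPM (reads scaled to the same total over the listed genes in each library) of all 73 members summed to 0.270%, 0.340% and 0.335% of all CPM in control IgG 1, 3 and 4. In anti-Dll4 1 to 4 the sums were 0.330%, 0.276%, 0.355% and 0.287%. The group means were 0.315% ± 0.0390 (SD, n = 3) and 0.312% ± 0.0367 (SD, n = 4), and the libraries of both groups were interleaved. Large subunit members held 0.216% ± 0.0158 with control IgG and 0.210% ± 0.0332 with anti-Dll4, and small subunit members 0.0982% ± 0.0235 and 0.102% ± 0.0126. Behind these sums lay 4517 to 6260 member reads per library, out of 1356192 to 1771086. No test was made on the sums, since the members were chosen as a list.

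Proteins of the cytosolic ribosome, which were compared because they build the other ribosome of a cell, did not show this pattern. Their 76 listed genes summed to 1.04%, 1.11% and 1.06% of CPM in control IgG 1, 3 and 4 and to 1.84%, 1.82%, 2.36% and 2.43% in anti-Dll4 1 to 4, without overlap, a ratio of group means of 1.98 against 0.992 for the mitochondrial set. Of these 76 genes, 64 had a positive and 12 a negative change (median log2 change 1.09). Rps9 (1.52 ± 0.29, adjusted p = 0.0319, limma) and Rpl13a (1.33 ± 0.26, adjusted p = 0.0465, limma) passed the test, but voom on whole reads called 0 of the 76 and leaving out any 1 library left 0 or 1. The difference between the 2 sets of genes was not itself tested. Sums of cell type markers, given below, also differed, with a ratio of group means of 2.12 for endothelial and 0.660 for rod markers. The part of such differences in the cytosolic ribosomal values was not tested.

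**Figure D1:**
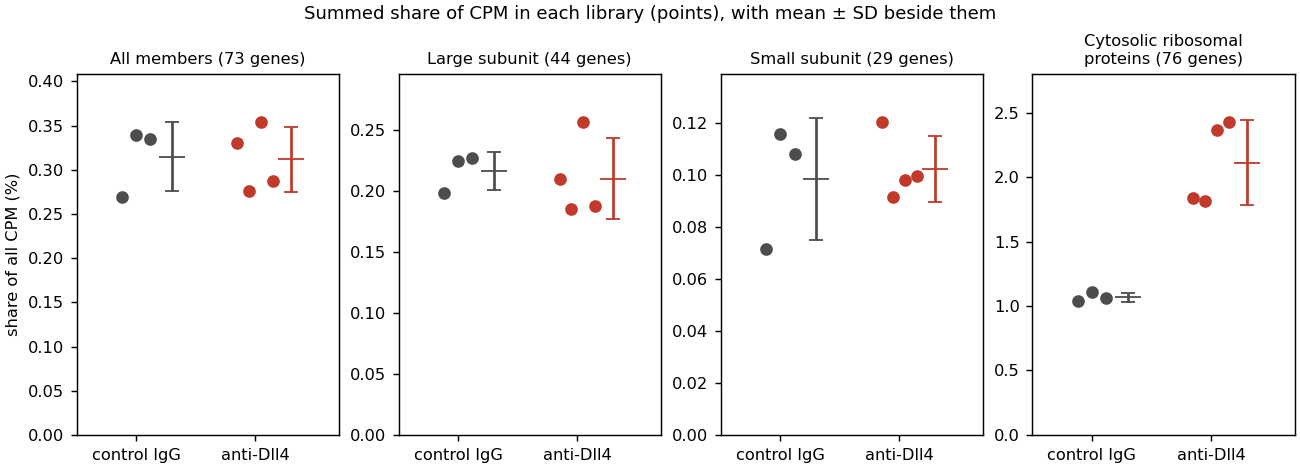
Share of all CPM (y axes, percent, each starting at 0) held by the 73 mitochondrial ribosomal protein genes, by their 44 large and 29 small subunit symbols, and by 76 cytosolic ribosomal protein genes. Each point is a library and the bars are mean ± SD; mitochondrial sums run from 0.270% to 0.355% with the groups interleaved, and cytosolic sums from 1.04% to 1.11% in control and 1.82% to 2.43% in anti-Dll4 libraries.

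The RNA pulled down was not of endothelial cells alone, and the marker sums differed between the groups. The 17 rod photoreceptor markers summed to 2.97% ± 0.0815 of CPM in control libraries (2.87% to 3.03%) and 1.96% ± 0.499 in anti-Dll4 libraries (1.40% to 2.58%), with no marker at 0 in any library. The 21 endothelial markers that were listed, of 22 fixed, summed to 0.228% ± 0.0563 (0.193% to 0.293%) and 0.483% ± 0.0522 (0.431% to 0.555%). Not every marker moved with its sum. Endothelial markers had 18 positive and 3 negative log2 changes, the negative ones being Kdr (-0.46), Flt1 (-0.38) and Sox17 (-0.75). Rod markers had 14 negative and 3 positive changes, the positive ones being Sag (0.39), Gnb1 (0.17) and Rp1 (0.82). Pecam1 had 135 to 471 reads and Cdh5 10 to 515 in every library, while Tek, Emcn, Sox17, Icam2 and Ecscr were each at 0 in at least 1 library. Their part in the members' values was not tested. Fewer cells of a type, less RNA per cell and less RNA carried over from cells without the tag cannot be told apart in such samples.

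No mitochondrial ribosomal protein gene passed the test. Of the 73 members, 68 had at least 1 CPM in at least 3 libraries and were tested on log2(CPM + 1) with limma, and 0 of them were called higher or lower at a Benjamini-Hochberg adjusted p under 0.05 over all 10899 genes tested, of which 13 (0.119%, all of them higher) were called. Unadjusted p was under 0.05 for 2 members (2.94%), against 7.09% of all tested genes: Mrps28 on the higher side (3.68% of all genes) and Mrpl19 on the lower side (3.41%). The groups did not overlap for 4 members (5.88%), against 7.59% of all tested genes: Mrpl22, Mrpl43 and Mrpl58 on the higher side (3.84% of all genes) and Mrpl19 on the lower side (3.75%). Positive changes numbered 35 and negative changes 33, and their median log2 change was 0.20 (-0.031 when 5 CPM was added instead of 1), beside 4964 positive and 5935 negative changes and a median of -0.14 for all tested genes. The lowest adjusted p of a member was 0.695. Voom on whole reads also called 0 members. The 68 include members that passed the filter mainly through the group where they were higher. Among them, Mrps28 and Mrpl58 reached 1 CPM in no control library. These counts are therefore a description.

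Single genes were measured with low precision. The median limma standard error was 1.53 log2 units over the members and 1.30 over all tested genes. The median change of the cytosolic ribosomal protein genes, 1.09, lay inside the 95% interval of 59 of the 68 members. Among the 8 members with at least 1000 reads, it lay inside the intervals of Mrpl2 and Mrpl37. It lay above those of Mrpl18, Mrpl24, Mrpl39, Mrpl49, Mrpl53 and Mrps7. Mrpl53 had the narrowest interval of the members, at -0.12 (95% interval -1.01 to 0.78). A missed threshold does not show that a member was unaltered.

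**Figure D2:**
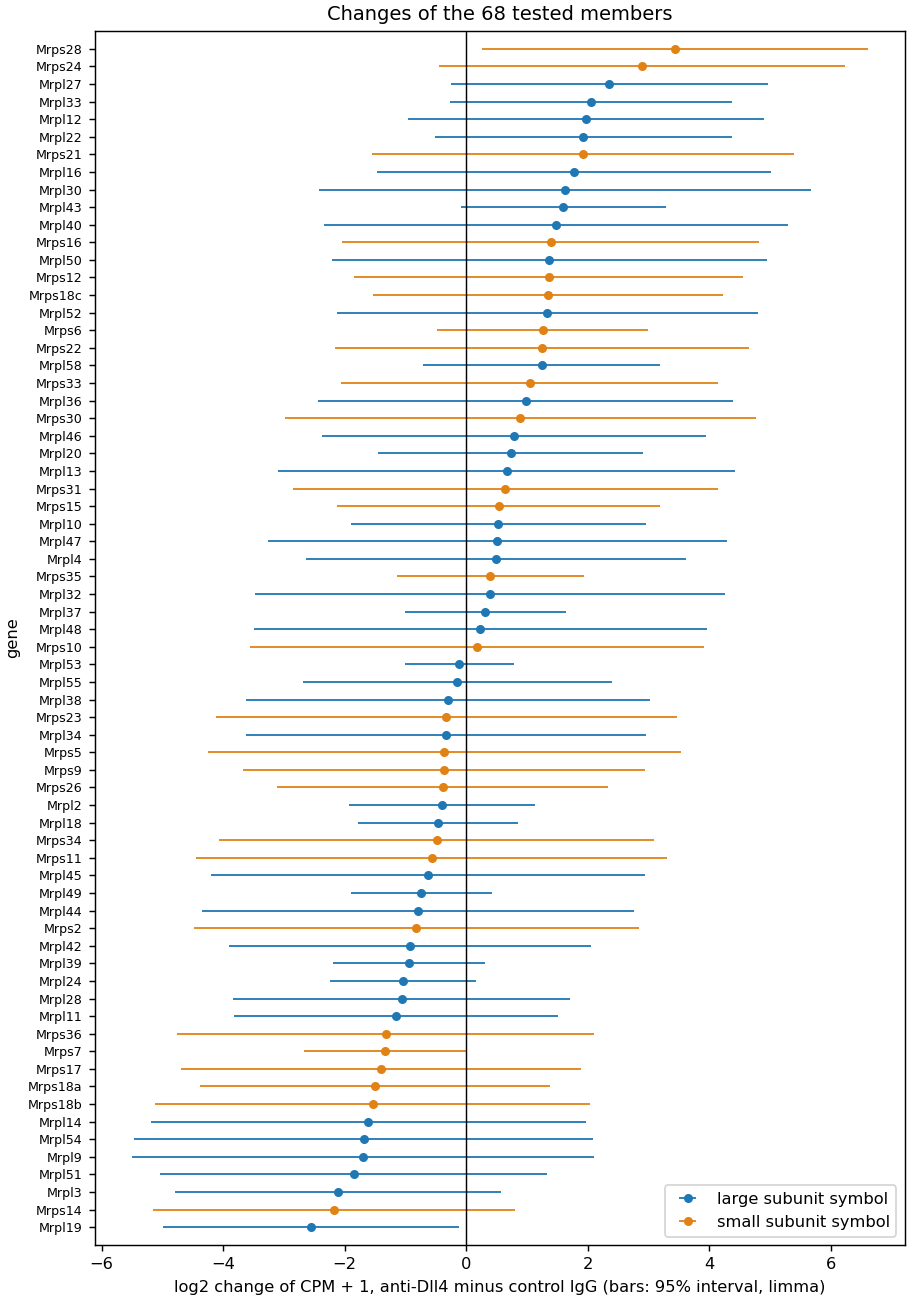
Log2 change of CPM + 1, anti-Dll4 minus control IgG (x axis), for the 68 tested members (y axis), coloured by subunit symbol, with limma's 95% interval as bars. Points run from -2.56 for Mrpl19 to 3.43 for Mrps28, and the intervals of these 2 members alone exclude 0 before adjustment. Mrps28 passed the filter through anti-Dll4 libraries alone.

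By class of reads, the 8 members with at least 1000 reads over the 7 libraries had the smallest median spread within groups, as given below. Of these, 7 had a negative and 1 a positive change (median -0.60), while 1426 of the 2606 tested genes with as many reads were negative (median -0.09). Mrpl53, a large subunit protein found in mitochondrial ribosomes and not in bacterial ones, had the most reads, 3521 in all. Its level was 231, 368 and 382 CPM in control IgG 1, 3 and 4 and 439, 242, 370 and 191 CPM in anti-Dll4 1 to 4. The groups overlapped throughout, with the highest and the lowest value both in anti-Dll4 libraries.

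Mrps7, a protein of the small subunit head, had 218, 394 and 340 CPM with control IgG against 278, 237, 114 and 28.8 CPM with anti-Dll4. Anti-Dll4 3 and 4 lay below every control library, whereas anti-Dll4 1 and 2 lay within the control range. Its change was -1.33 ± 0.65 (SE, adjusted p = 0.705, limma) and went to -0.65 without anti-Dll4 4. Mrpl24, which lines the exit of the peptide tunnel, had 250, 275 and 171 CPM with control IgG against 116, 243, 64.6 and 80.2 CPM with anti-Dll4, with a change of -1.04 ± 0.57 (adjusted p = 0.731). All anti-Dll4 libraries except anti-Dll4 2 were below the lowest control library. Exons of Mrps7 overlap those of Gga3 and Mif4gd, and exons of Mrpl24 those of Rrnad1, in GENCODE M21, so reads of these genes may not be separable.

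Mrpl39 and Mrpl49, proteins of the large subunit without bacterial counterparts, were likewise lower on average. Mrpl39 had 165, 265 and 227 CPM with control IgG against 40.2, 210.4, 162 and 111 CPM with anti-Dll4 (change -0.94 ± 0.60, or -0.46 without anti-Dll4 1). Mrpl49 had 192, 155 and 199 CPM with control IgG against 71.0, 116, 100.3 and 165 CPM with anti-Dll4 (change -0.74 ± 0.56). For each gene 1 anti-Dll4 library lay in the control range, the second for Mrpl39 and the fourth for Mrpl49, and the other anti-Dll4 libraries were below it. Mrpl2, a protein next to the peptidyl transferase centre, had 64.9, 145 and 174 CPM with control IgG against 143, 77.1, 210.2 and 27.1 CPM with anti-Dll4, which spanned the whole control range. Mrpl18 (-0.47 ± 0.64) and Mrpl37 (0.31 ± 0.64) complete the 8, and none of them passed.

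**Figure D3:**
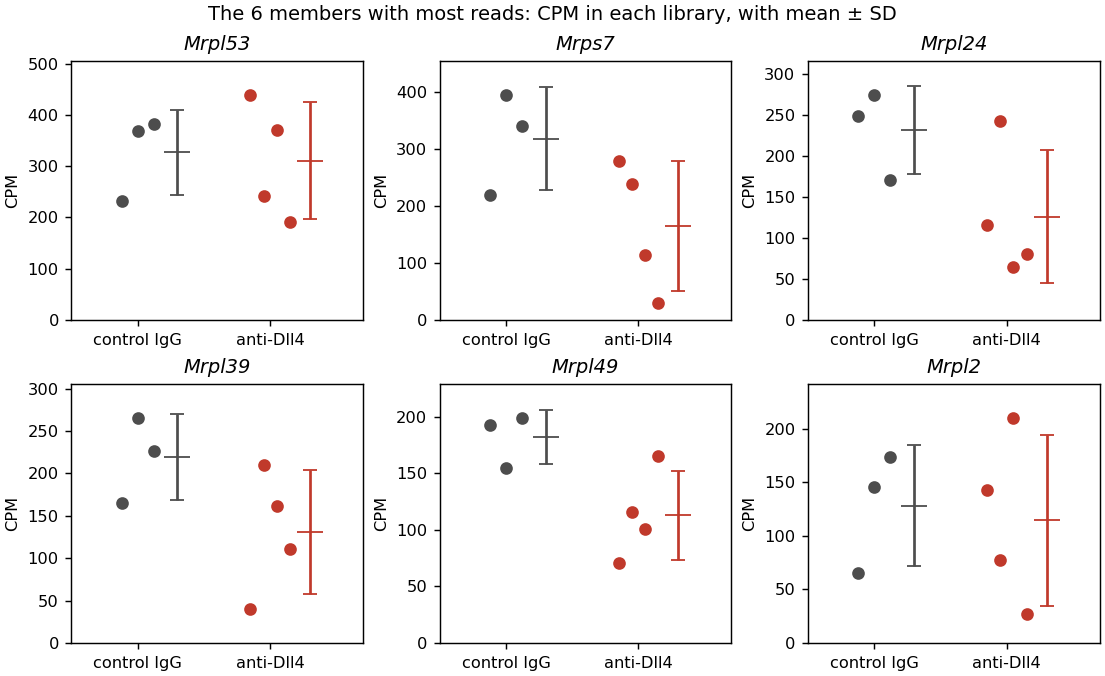
CPM (y axes, from 0) of the 6 members with most reads in each library (points), with mean ± SD beside them. Mrpl53 runs from 191 to 439 CPM with the groups mixed, and the lowest Mrps7 value, 28.8 CPM, is in anti-Dll4 4.

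Groups did not overlap for Mrpl19, Mrpl22, Mrpl43 and Mrpl58. Mrpl19, a protein at the interface of the subunits, was lower: 140.4, 94.4 and 73.6 CPM in control IgG 1, 3 and 4 against 20.8, 28.7, 60.05 and 1.13 CPM in anti-Dll4 1 to 4. The means were 103 ± 34.2 CPM (SD, n = 3) and 27.7 ± 24.5 CPM (SD, n = 4), and the change was -2.56 ± 1.17 (SE, 95% interval -4.99 to -0.12, unadjusted p = 0.0405, adjusted p = 0.695, limma). Anti-Dll4 4 held 2 reads, and without that library the change was -1.56. The nearest libraries of the groups were control IgG 4, at 73.6 CPM, and anti-Dll4 3, at 60.05 CPM. Exons of Mrpl19 overlap those of Gcfc2.

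Mrpl43, a large subunit protein without a bacterial counterpart, was higher in each anti-Dll4 library. It had 52.5, 13.3 and 48.2 CPM with control IgG against 85.7, 102, 154 and 75.7 CPM with anti-Dll4, a change of 1.60 ± 0.81 (95% interval -0.09 to 3.28, adjusted p = 0.706, limma). The means were 38.0 ± 21.5 CPM (SD, n = 3) and 104 ± 34.6 CPM (SD, n = 4), and the change was 0.98 without control IgG 3. Its exons overlap those of Twnk, which encodes the mitochondrial DNA helicase. Mrpl22, at the wall of the exit tunnel, had 43.1, 1.47 and 33.9 CPM with control IgG against 61.6, 56.3, 57.8 and 57.6 CPM with anti-Dll4 (change 1.92 ± 1.18, adjusted p = 0.756). The anti-Dll4 libraries lay within a few CPM of each other, and control IgG 3, with 2 reads, was far below the other control libraries; without it the change was 0.60. Mrpl58, a peptidyl-tRNA hydrolase of the large subunit that rescues stalled mitochondrial ribosomes, had 1, 0 and 1 reads with control IgG against 3, 9, 3 and 2 reads with anti-Dll4, close to the limit of 3 reads that a count of 0 allows. Mrpl58 passed the filter through anti-Dll4 libraries alone.

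Most members were read unevenly from library to library. At least 1 library at 0 reads was found for 30 of the 73 members (41.1%), and 21 were above 3 reads in every library. Among tested members, 39 of 68 (57.4%) had a library at or under 3 reads and another of the same group at 50 or more, against 38.8% of all tested genes. These shares were not matched for reads. At least 1000 reads over the 7 libraries were reached by 8 of the 68 members and by 2606 of the 10899 genes. Mrpl30 had 0, 0 and 83 reads with control IgG against 0, 6, 122 and 99 reads with anti-Dll4. Mrps9 had 133, 4 and 130 reads with control IgG against 0, 76, 179 and 104 reads with anti-Dll4. The protocol names no molecular identifiers, and PCR reads are not independent molecules, so limits taken from counts cover counting error only. Control IgG 3 and anti-Dll4 3 had the most members at or under 3 reads, 27 each, and anti-Dll4 4 the fewest, 11. The 21 members above 3 reads everywhere had 9 positive and 12 negative changes (median -0.15), beside a median of -0.08 for the 4687 tested genes read that way.

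**Figure D4:**
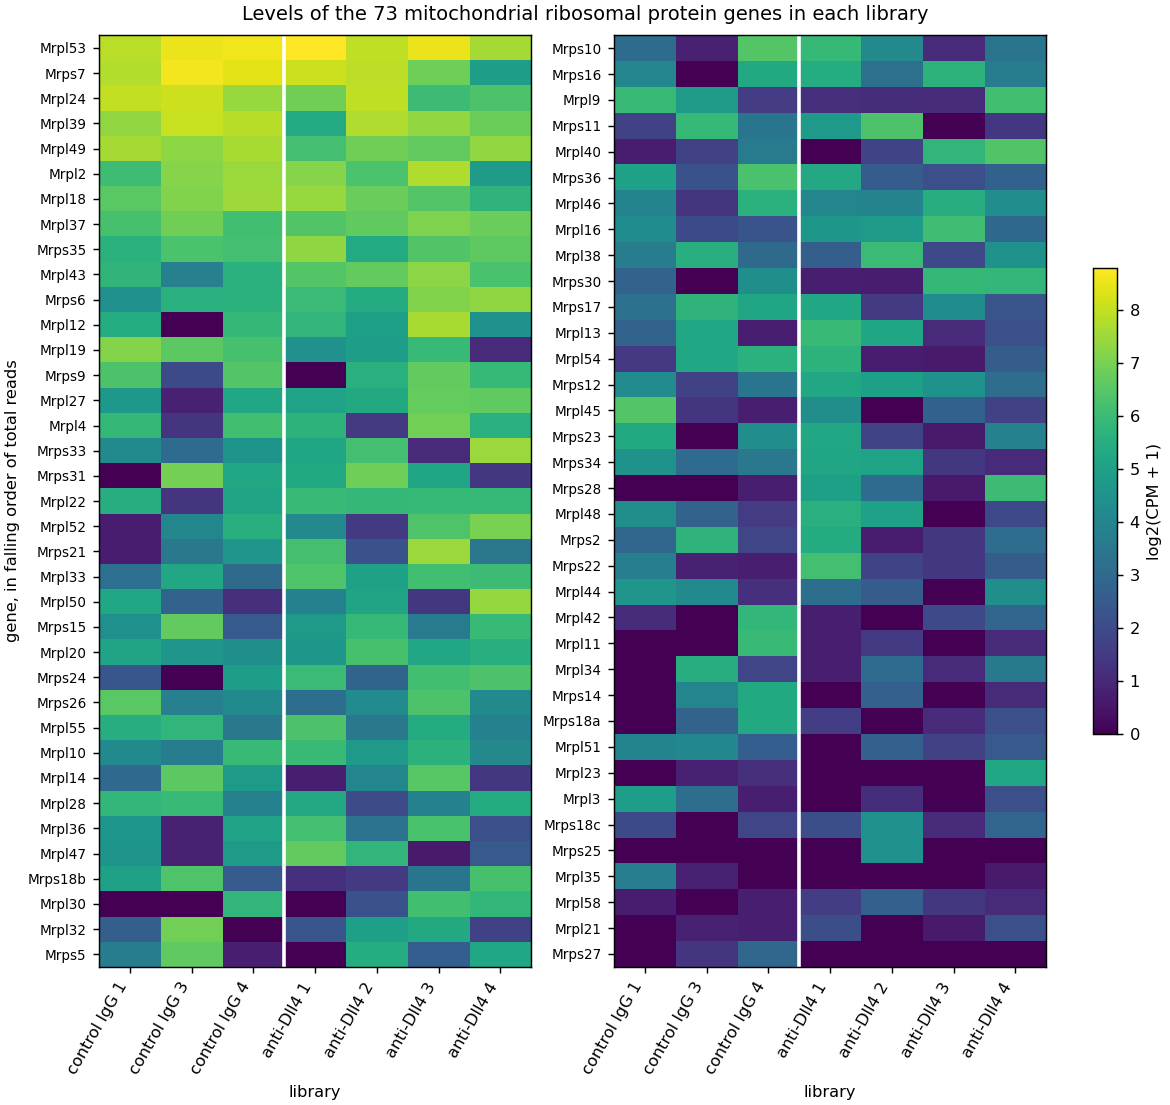
Level of each of the 73 members, log2(CPM + 1) by colour, in the 7 libraries (columns; the white line parts control IgG from anti-Dll4), ordered by total reads. Rows below the best-read genes switch between dark and bright from library to library within a group, as for Mrpl30 and Mrps9.

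The median spread was smallest in the class of members with most reads. Members with at least 1000 reads had a median SD within groups of 0.66 log2 units (0.34 to 1.17), and those with from 300 reads to below 1000 a median of 2.10 (0.57 to 3.12). Over all tested genes in the same classes the medians were 0.70 and 1.78. With from 100 reads to below 300, the median was 2.18 for members and 2.18 for all tested genes. Under 100 reads it was lower again, 1.54 for the 7 tested members and 1.47 for all tested genes. The 28 members of the second class had 21 positive and 7 negative changes (median 0.68), while the 3742 tested genes of that class had a median of -0.16. The 10 members with most reads held 48.1% of all member reads. Correlations of the 68 tested members between libraries, which are across genes and share depth within a library, were 0.20 to 0.37 among control libraries, 0.24 to 0.49 among anti-Dll4 libraries and 0.19 to 0.58 between groups. All tested genes gave 0.61 to 0.65, 0.55 to 0.60 and 0.52 to 0.63.

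**Figure D5:**
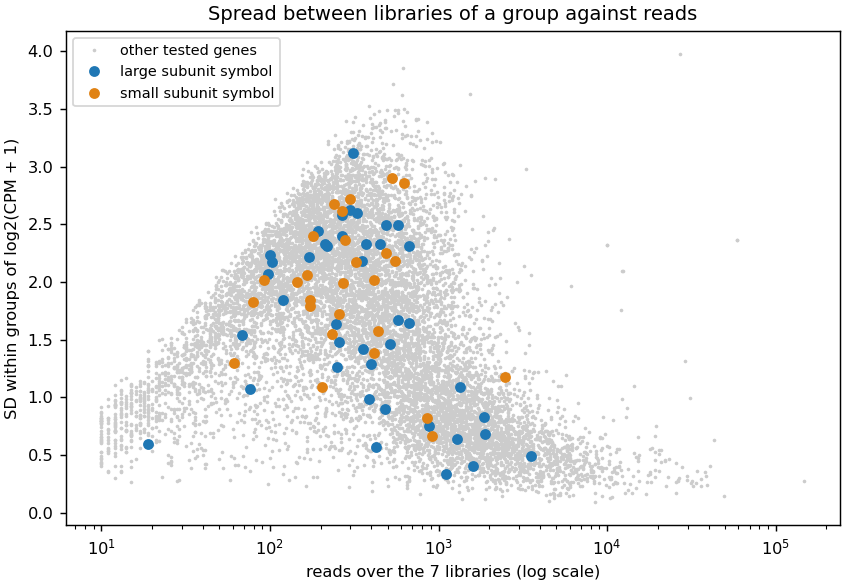
SD within groups of log2(CPM + 1) (y axis) against reads over the 7 libraries (x axis, log scale) for the 68 tested members, coloured by subunit symbol, and the other tested genes in grey. Members with 300 to below 1000 reads reach an SD of 3.12, and the 8 members with at least 1000 reads stay at or below 1.17.

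By position in the ribosome, the stalk, the tunnel exit and the central protuberance each held members with positive and with negative changes. In the stalk that recruits translation factors, Mrpl10 had a change of 0.52 ± 1.17, Mrpl12, the multimeric stalk protein, of 1.97 ± 1.41, and Mrpl11, at the stalk base, of -1.15 ± 1.28. Mrpl12 had 71, 0 and 87 reads with control IgG against 80, 50, 345 and 39 reads with anti-Dll4, and its change was 0.087 without control IgG 3, the library at 0. Mrpl11 had 94 of its 100 reads in control IgG 4. At the tunnel exit, Mrpl22 was positive and Mrpl24 negative as given above, and Mrpl45, which tethers the ribosome to the inner membrane, was at -0.63 ± 1.72, with 146 of its 192 reads in control IgG 1. Mrpl23, also at the exit, was not tested, having 67 of its 70 reads in anti-Dll4 4. Of the central protuberance, Mrpl38, Mrpl40 and Mrpl46 had changes of -0.30 ± 1.60, 1.48 ± 1.83 and 0.79 ± 1.52. Mrpl27, which reaches towards the peptidyl transferase centre, had 24.8, 0.737 and 37.8 CPM with control IgG against 32.8, 39.8, 104 and 97.7 CPM with anti-Dll4 (change 2.35 ± 1.26, adjusted p = 0.713). Anti-Dll4 1 lay within the control range, and the others above it, anti-Dll4 2 by a small margin, and the change was 0.96 without control IgG 3.

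Among small subunit genes, Mrps12, of the decoding centre, had a change of 1.35 ± 1.54. The 3 mitochondrial relatives of bacterial protein S18, of which the Mrps18a protein sits in the large subunit despite its name, had changes of both signs: Mrps18a -1.50 ± 1.39, Mrps18b -1.54 ± 1.72 and Mrps18c 1.35 ± 1.38, with Mrps18a at -0.19 without control IgG 4. Mrps30, also a large subunit protein by position, had 10, 0 and 30 reads with control IgG against 1, 1, 100 and 98 reads with anti-Dll4. Anti-Dll4 1 and 2 lay within the control range, and anti-Dll4 3 and 4 above it.

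The largest positive change of a tested member was that of Mrps28, the counterpart of bacterial S1, at 3.43 ± 1.52 (95% interval 0.26 to 6.61, unadjusted p = 0.0351, adjusted p = 0.695, limma). Mrps28 had 0, 0 and 1 reads with control IgG against 46, 12, 1 and 112 reads with anti-Dll4. It passed the filter through anti-Dll4 libraries alone, so its p and interval are a description. Anti-Dll4 3 was as low as control IgG 4, and the size of this change depends on the added 1 CPM. Mrps24, at the messenger entry of the small subunit, had 4.13, 0 and 29.3 CPM with control IgG against 62.3, 6.12, 69.1 and 79.0 CPM with anti-Dll4 (change 2.89 ± 1.61, adjusted p = 0.731). Its anti-Dll4 2 value lay inside the control range, and the change was 1.68 without control IgG 3, the library at 0. Mrpl33, a small protein near the exit site of the large subunit, had 8.26, 36.9 and 7.17 CPM with control IgG against 81.0, 31.8, 68.5 and 63.8 CPM with anti-Dll4 (2.05 ± 1.12, adjusted p = 0.725), again with anti-Dll4 2 inside the control range. Mrps21 (1.92 ± 1.67) and Mrpl16 (1.77 ± 1.56) complete the 8 members with the largest positive changes among those with a mean log2 level of at least 3, and that of Mrps21 was 0.80 without control IgG 1.

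With Mrpl19, Mrps7 and Mrps18b, the 8 members with the largest negative changes at that level were Mrpl9, Mrpl54, Mrpl14, Mrps17 and Mrps36, at -1.70 ± 1.83, -1.69 ± 1.82, -1.61 ± 1.72, -1.40 ± 1.58 and -1.33 ± 1.65. The groups overlapped for all 5, and every 95% interval included 0. With the replicate block on title numbers, the changes of Mrpl9 and Mrps18b turned positive, to 0.43 and 0.39. Leaving out 1 library brought Mrpl9 to -0.78, Mrpl54 to -0.94, Mrpl14 to -0.73, Mrps17 to -0.80, Mrps36 to -0.45 and Mrps18b to -0.67 at the least. Mrps36 is a member by its symbol, although its protein is now known as a subunit of the oxoglutarate dehydrogenase complex. Mrpl54 had 3, 49 and 73 reads with control IgG against 75, 1, 1 and 9 reads with anti-Dll4, the highest value being in an anti-Dll4 library.

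Members with a counterpart in bacteria and members found only in mitochondria were set side by side, since the former make up the ancestral core. The 39 tested members with a counterpart had 22 positive and 17 negative changes (median 0.49), and the 27 tested members particular to mitochondria had 13 and 14 (median -0.12). Their shares of CPM were 0.175% ± 0.0283 and 0.134% ± 0.0101 with control IgG and 0.171% ± 0.0368 and 0.139% ± 0.0104 with anti-Dll4. The group means of each kind differed by less than the SD of either group, and 0 genes of either kind were called. Mrps18a and Mrps18b, both with negative changes, were in neither list, and Mrps36 was counted as particular to mitochondria.

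Of the 5 members that were not tested, Mrpl21 had 14 reads, Mrpl23 70, Mrpl35 23, Mrps25 33 and Mrps27 12 over the 7 libraries. All 33 reads of Mrps25 were in anti-Dll4 2, and this row was the same in every library as that of Sh3rf3. Exons of 20 members overlap those of another listed gene in GENCODE M21, Mrpl46 and Mrps11 with each other, and 5 processed pseudogenes are named for a member, so their values are uncertain where reads could be shared.

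The machinery around the mitochondrial ribosome was examined through lists of its other parts, and none of the genes tested in them passed (0 genes called in each list, limma). The lists comprised subunits with other symbols (3 tested), translation factors (9), assembly and rRNA modification factors (19), aminoacyl-tRNA synthetases (13), transcription and RNA handling (15) and regulators of mitochondrial biogenesis (8). Positive and negative changes numbered 1 and 2, 2 and 7, 4 and 15, 4 and 9, 6 and 9, and 2 and 6 in that order. The medians were -0.06, -1.51, -0.98, -0.92, -0.44 and -1.18, beside 0.20 for the members and -0.14 for all tested genes. When each library was left out in turn, the median of the subunits with other symbols ran from -0.33 to 0.35, with both signs. The medians of the other lists stayed negative. Those of translation factors, assembly factors and synthetases were at -1.38 to -0.77, -0.74 to -0.49 and -1.16 to -0.079. Those of transcription and RNA handling and of the regulators were at -0.72 to -0.093 and -1.77 to -0.38. The shares of CPM were 0.0938% ± 0.00724 with control IgG and 0.0618% ± 0.0163 with anti-Dll4 for translation factors, and 0.184% ± 0.0163 and 0.140% ± 0.0269 for transcription and RNA handling. Rod markers held less of the CPM in the same libraries, as given above, and their part was not tested. Of 13 symbols of messengers encoded by mitochondrial DNA that were searched, 0 were among the 12756 genes, so these messengers were not analysed.

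From each list the 2 genes with the smallest p are given. Ptcd3, a small subunit protein that guides the messenger, had 164, 400 and 331 reads with control IgG against 148, 211, 119 and 18 reads with anti-Dll4 (change -1.72 ± 0.81). Aurkaip1, another small subunit protein, had 6, 0 and 7 reads and 5, 97, 77 and 75 reads (3.19 ± 1.70), with anti-Dll4 1 inside the control range. The initiation factor Mtif2 had 1189, 872 and 1172 reads with control IgG against 911, 818, 476 and 817 reads with anti-Dll4 (-0.67 ± 0.35, adjusted p = 0.711, limma), and in CPM the groups did not overlap. Guf1, a translational GTPase, had 21, 101 and 0 reads with control IgG against 0, 2, 0 and 0 reads with anti-Dll4 (-3.04 ± 1.33).

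Hars2, the mitochondrial histidyl-tRNA synthetase, was the best-read gene among the synthetases. It was at 380.4 ± 37.5 CPM (SD, n = 3) with control IgG and 148 ± 64.5 CPM (SD, n = 4) with anti-Dll4, from 583, 513 and 643 against 272, 362, 159 and 172 reads, a change of -1.46 ± 0.49 (adjusted p = 0.453, limma). Every anti-Dll4 library was below every control library. Aars2, the alanyl-tRNA synthetase, had 91, 22 and 2 reads with control IgG against 0, 0, 0 and 1 with anti-Dll4 (-3.53 ± 1.26, adjusted p = 0.529, limma). Aars2 passed the filter through control libraries alone, so its change and p are a description. The rRNA methyltransferase Mrm2 (-2.04 ± 1.10) and the pseudouridine synthase Rpusd4 (-1.94 ± 1.17) had the smallest p among assembly factors. Hsd17b10, a subunit of mitochondrial RNase P (-3.30 ± 1.51), and Polg, the mitochondrial DNA polymerase (-2.03 ± 1.10), had the smallest p in their list.

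Among regulators, the nuclear receptor Esrra, which drives genes of oxidative metabolism, had 104, 160 and 232 reads with control IgG against 72, 14, 3 and 52 reads with anti-Dll4 (-2.89 ± 1.19, adjusted p = 0.678, limma), without overlap. The coactivator Ppargc1b had a change of -1.01 ± 0.73. Its highest and its lowest value were both in anti-Dll4 libraries, 212 and 20.4 CPM.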

How the data were processed

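RNA was bound to HA-tagged ribosomes, pulled down from whole retinas and sequenced as QuantSeq 3' libraries, per the labels' protocols. Reads were handled with cutadapt, TopHat2 and bedtools, per the submitters' processing notes, which name the human build hg19 for these mouse data; how reads were counted, and whether by strand, is not given in the sources used here. The deposited values are log10(CPM + 1), which the values themselves show: turned back, 100% were whole reads within a tolerance of 1e-06. The reads recovered number 1356192 to 1771086 per library, far fewer than the protocol's sequenced reads. They cover listed genes only, and 3 reads equal 1.69 to 2.21 CPM. Of the control columns, the one numbered 1 matches no sample title by number, the remaining title carrying 15, and it was taken as belonging to the control group only.

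The test was made on log2(CPM + 1) of genes that reached 1 CPM in 3 or more libraries, with limma 3.58.1 in R 4.3.3 (trended variance, Benjamini-Hochberg over 10899 genes), 3 libraries against 4, tested first on simulated data. Fold changes are on that scale, which understates the change of low genes. The members and gene lists were chosen with earlier results of these data known. Named are members past the threshold, the 8 largest changes each way at a mean log2 level of at least 3, the 6 with most reads, structural landmarks, members whose groups do not overlap, and 2 genes per other list. Mrpl18, Mrpl30, Mrpl37, Mrps9 and Mrps28 were named after their values were seen. Alternatives were another pseudocount and filters, other scalings, replicate blocks, voom and leaving out each library. The count models planned as alternatives were not run, and voom on the recovered reads took their place.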

Additional observations from a re-analysis of the deposited data

Results flagged for a closer look

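Of 36 results examined for a library far from the others of its group, 3 had one among the 4 anti-Dll4 libraries, where chance gives about 1 in 20 groups. Mrpl23, a tunnel exit protein, had 37.8 CPM (67 reads) in anti-Dll4 4 and 0 in the other anti-Dll4 libraries. Mrpl9 had 68.3 CPM (121 reads) in anti-Dll4 4 and 2 reads in each of the other anti-Dll4 libraries. Mrps24 had 6.12 CPM (10 reads) in anti-Dll4 2, and 62.3 to 79.0 CPM in the others. The gap to the nearest library was 1, 0.974 and 0.903 of the group's range in that order, above Dixon's critical value at the 95% level.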

How the results depend on the processing

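Members called numbered 0 higher and 0 lower in every alternative run, and 24 of the 32 named and tested members kept their sign in all of them. The members' median change was 0.20 and went to -0.031 with 5 CPM added. That of the large subunit, 0.23, went to -0.056 with 5 CPM added, 0.44 with a filter of 10 CPM, -0.012 with the replicate block on title numbers, -0.022 with the replicate block on column numbers and -0.095 with voom on whole reads. When each library was left out in turn, it ran from -0.11 to 0.29, that of translation factors from -1.38 to -0.77, of assembly factors from -0.74 to -0.49, of synthetases from -1.16 to -0.079, of transcription and RNA handling from -0.72 to -0.093, of regulators from -1.77 to -0.38 and of subunits with other symbols from -0.33 to 0.35, with other genes passing the filter. The cytosolic ribosomal protein genes called, 2, went to 0 with voom and to 0 to 1 without a library. Signs turned under the block on title numbers for Mrpl9 (0.43), Mrps18b (0.39) and Mrpl45 (1.20), and under the block on column numbers for Mrpl45 (0.11). Leaving out a library gave -0.35 to 0.092 for Mrpl53, -0.82 to 0.17 for Mrpl2, -1.68 to 1.18 for Mrpl45, -1.03 to 0.42 for Mrpl38, -0.37 to 1.78 for Mrpl46 and -0.30 to 1.88 for Mrps30; the cause was not tested. Over all genes, 13 calls, all higher, went to 3 to 22 without a library, 1 higher and 2 lower with the title block, 0 without the variance trend and 3 higher and 2 lower with voom.

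Title numbers pair only libraries 3 and 4. Libraries with the same column number correlated in their deviations at 0.052, 0.046 and 0.067, and the other pairs at -0.037 to 0.015. Each control library thus correlated best with its own number. These values do not settle whether the numbers pair samples. The main test left pairing out, and the blocks are given as alternatives. Depth limits the members: 11 to 27 of 73 were at or under 3 reads in a library, where differences were not detectable.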
